A study of Mus musculus with 8 samples.

Results

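The genes described here are the pore-forming and auxiliary subunits of voltage-gated sodium and calcium channels and of potassium channels, as expressed in mouse brown adipose tissue with and without the histone demethylase LSD1. They were chosen by symbol alone: every gene of the count table whose symbol starts with Kcn and a further letter, with Scn and a digit, or with Cacna, Cacnb or Cacng. That rule gave 137 genes among 23372 with a symbol, of which 134 were protein coding and 3 were noncoding transcripts. Knockout mice had floxed Lsd1 (gene symbol Kdm1a) and a Cre recombinase driven by the promoter of Ucp1, the uncoupling protein of brown adipocytes, and were 10 weeks old. The control mice were Lsd1 floxed and of the same age, tissue and C57BL/6 N background, and the study's text names Cre only for the knockout cross. Loss of Lsd1 and presence of the Cre transgene therefore cannot be told apart. The Ucp1 promoter drives Cre in brown adipocytes, while whole tissue was sequenced, and recombination by cell type was not measured. There were 4 knockout libraries (512, 513, 515 and 516) and 4 control libraries (511, 514, 517 and 518). The labels do not state whether each came from a separate animal, so p-values measure the spread between these libraries.

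Potassium channels that are open at rest set the membrane potential of a cell, and voltage-gated channels open when that potential moves. Each voltage-gated sodium or calcium channel has a large pore subunit (alpha) and smaller partners (beta, alpha2delta, gamma) that set its traffic and gating. Voltage-gated potassium (Kv) channels are tetramers of alpha subunits, some of which, the silent subunits, form no channel alone but join other alpha subunits. In brown fat, noradrenaline from sympathetic nerves depolarises the adipocyte and starts thermogenesis. The 2-pore channel encoded by Kcnk3 is known in mouse brown adipocytes as a brake on that depolarisation.

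Each library held 23683936 to 28570627 counts with 1 transcript row per gene. Levels are given as CPM, counts divided by library size and scaled by TMM factors, always in the order 512, 513, 515 and 516 for knockout and 511, 514, 517 and 518 for control. Kdm1a, the targeted gene, had 14, 12.2, 13.2 and 13.0 CPM in the knockout libraries, against 35.3, 35.9, 33.3 and 36.8 CPM in the control libraries (log2 fold change -1.43, SE 0.0758, edgeR adjusted p = 1.95e-05). All 10 brown adipocyte markers were present, and their summed level was 12353 to 14020 CPM in knockout and 18888 to 25184 CPM in control. Fabp4 held a large part of that sum, at a mean of 6022 CPM in knockout and 9999 CPM in control. Of the 10, 5 were called lower, against 18.9% of all tested genes, and the median log2 fold change was -0.32. The lower ones included Elovl3 (-2.35, edgeR adjusted p = 0.0311) and Letmd1 (-1.01, edgeR adjusted p = 0.000113). Fabp4 (-0.73, edgeR adjusted p = 0.00259) and Cox7a1 (-0.38, edgeR adjusted p = 0.0064) were lower too. Adipoq, Plin1, Cidea, Ppargc1a and Dio2 were not called. Skeletal muscle RNA differed between the libraries. The 20 skeletal muscle markers summed to 21744, 14279, 12378 and 9680 CPM in the knockout libraries, against 5810, 391, 4697 and 8583 CPM in the control libraries. Those sums do not overlap between the groups, and control 514 stands apart at the low end. None of the 20 markers was called, and their median log2 fold change was 1.56. In tissue RNA, fewer cells of a type and less RNA per cell cannot be told apart.

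Of the 137 channel genes, 84 had at least 1 count in every library, 70 passed the filter on low counts and were tested, 56 had counts but were below the filter, and 11 were at 0 in all 8 libraries. The test was edgeR's quasi-likelihood test over all 14178 genes that passed, and a gene was called at a Benjamini-Hochberg adjusted p under 0.05. Among the 70 tested channel genes 17 were called, against 34.1% of all tested genes. In knockout, 13 were higher, which is 18.6% against 15.2% of all tested genes. The 4 that were lower make up 5.71%, against 18.9% of all tested genes. Both contrasts moved with the scaling: with library sizes alone, 21 channel genes and 3993 of all genes were higher, and 3 channel genes and 931 of all genes were lower. With limma-voom 24 channel genes were higher and 5 lower. The shares of all tested genes given here come from edgeR and are no background for the limma-voom counts. At least 2-fold differences were found for 12 of the higher genes and 2 of the lower ones, where 5.72% and 0.91% of all tested genes passed. The count of higher channel genes was 8 without knockout 513 and 21 without control 514, while all genes gave 1527 and 2062. Knockout and control libraries did not overlap for 23 of the 70, or 32.9%, against 35.5% of all tested genes, and 15 of the 17 called genes were among them. The median log2 fold change was 0.34 over the tested channel genes and -0.01 over all tested genes.

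The highest levels per length belonged to few genes. Over all 8 libraries Kcnk3 stood first with 109 CPM per kilobase of transcript, and among the other genes described here Kcnj8 had 16.5 and Cacna1s 11.6. Kcnj11 had 8.76 CPM per kilobase, Kcns3 8.56, Scn4b 8.53, Cacng7 8.08, Kcna5 8.05, Cacnb1 6.65 and Scn4a 5.24. Neighbours in the stretch between Kcnj11 and Kcna5 are less than 1 CPM per kilobase apart. Summed over all 137 genes the level was 373 CPM per kilobase in knockout and 296 in control. 2-pore potassium channels summed to 95.4 CPM per kilobase in knockout and 135 in control. Calcium channel auxiliary subunits summed to 43.8 CPM per kilobase in knockout and 14.2 in control. Several of these follow the skeletal muscle markers given above, and with the mean log2 CPM of the 20 muscle markers added to the fit as a covariate (the muscle score) the median log2 fold change of this family was 0.39 with 3 higher genes, against 1.42 with 5 without it. Voltage-gated potassium alpha subunits summed to 48.6 CPM per kilobase in knockout and 48.9 in control. Of their 21 tested members 5 were called, against 34.1% of all tested genes. The plot by family shows that the called genes are spread over most families.

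Promoter sequence was looked up where the count row starts within 10 bases of a gene start in RefSeq's promoter table (build GRCm38.p6), over the 250 bases before the start. That gave a window for 38 tested channel genes, of which 9 were called. Only Cacna1d among the lower genes had a window, and Kcnk2, Cacnb2, Kcnc2 and Kcnj2 are 4 of the 8 higher ones, so the last 200 bases before the start are shown for these 5, with each GC box (GGGCGG on either strand) in capitals.
Cacna1d, chr14:30353487-30353686, minus strand: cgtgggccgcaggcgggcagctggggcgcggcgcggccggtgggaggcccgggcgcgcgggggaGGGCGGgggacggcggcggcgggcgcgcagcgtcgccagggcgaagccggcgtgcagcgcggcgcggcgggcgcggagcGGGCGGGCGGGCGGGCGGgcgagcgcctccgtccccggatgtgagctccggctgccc
Kcnk2, chr1:189343708-189343907, minus strand: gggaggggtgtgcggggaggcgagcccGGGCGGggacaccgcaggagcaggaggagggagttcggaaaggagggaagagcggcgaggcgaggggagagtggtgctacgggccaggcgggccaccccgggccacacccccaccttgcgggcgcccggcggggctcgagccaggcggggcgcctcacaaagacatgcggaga
Cacnb2, chr2:14604106-14604305, plus strand: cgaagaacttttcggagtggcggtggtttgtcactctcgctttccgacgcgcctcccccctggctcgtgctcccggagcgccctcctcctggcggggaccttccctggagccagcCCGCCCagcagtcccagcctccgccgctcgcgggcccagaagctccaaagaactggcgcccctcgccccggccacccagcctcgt
Kcnc2, chr10:112270923-112271122, plus strand: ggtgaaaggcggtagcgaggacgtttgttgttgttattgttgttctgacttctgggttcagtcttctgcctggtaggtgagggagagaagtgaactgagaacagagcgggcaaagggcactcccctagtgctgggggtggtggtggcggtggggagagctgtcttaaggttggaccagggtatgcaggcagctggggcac
Kcnj2, chr11:111065964-111066163, plus strand: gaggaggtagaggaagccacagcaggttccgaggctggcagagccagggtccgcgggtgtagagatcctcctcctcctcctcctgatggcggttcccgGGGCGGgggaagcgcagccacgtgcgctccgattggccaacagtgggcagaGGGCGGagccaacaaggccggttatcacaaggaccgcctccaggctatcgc
The shown stretch holds 5 GC boxes in Cacna1d, some of which overlap, 2 in Kcnj2, 1 each in Kcnk2 and Cacnb2, and 0 in Kcnc2. A GC box lay in the 250 bases of 7 of the 8 higher genes and of the 1 lower gene, in 20 of the 38 tested channel genes, and in 43.1% of 13405 promoters. CG dinucleotides numbered 50 in Cacna1d, 30 in Cacnb2, 27 in Kcnk2, 14 in Kcnj2 and 5 in Kcnc2. The median was 30 over the 9 called genes, 9 over the 38 tested channel genes and 10 over all promoters. The E-box CAGCTG, which myogenic factors among others can bind, was in 4 of the 8 higher genes and in the 1 lower gene. It was in 10 of the 38 tested genes and in 12.2% of all promoters. TATAAA was in 0 of the 38 and in 12.5% of all. The left part of the REST element, TTCAGCACC, and its right part were each in 0 of the 38, and in 0.313% and 0.097% of all promoters. Motifs that rare would seldom turn up in 38 windows, so these counts cannot set channel genes apart from others. REST is a repressor of neuronal genes that recruits LSD1 through CoREST. These matches describe letters in a short window and say nothing about binding.

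Among 2-pore potassium channels, the most abundant one was lower and a scarce one was higher. Kcnk3 (TASK-1; chromosome 5, 30588170 to 30625270, plus strand, mm10) encodes an acid-sensitive background channel. It had 350, 326, 315 and 353 CPM in the knockout libraries, against 407, 448, 534 and 589 CPM in the control libraries. Every knockout library was below every control library, and the control libraries varied more. Kcnk3 averaged 336 ± 18.9 CPM in knockout and 495 ± 82.2 CPM in control (SD, n = 4 each), 1.47-fold lower (log2 fold change -0.56, SE 0.115, edgeR adjusted p = 0.00597). With the muscle score as a covariate, its log2 fold change was -0.67 (edgeR adjusted p = 0.0147). Of its exon bases, 5.8% lie opposite the gene model Gm9899, and counting did not use strand.

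Kcnk2 (TREK-1; chromosome 1, 189207930 to 189343704, minus strand), a background channel gated by stretch, lipids and temperature, had 11.1, 7.29, 7.65 and 8.82 CPM in the knockout libraries, against 1.87, 1.52, 3.04 and 3.16 CPM in the control libraries. The lowest knockout library was more than 2-fold above the highest control library. Kcnk2 was higher by 1.86 on the log2 scale (SE 0.254, edgeR adjusted p = 0.000869), and 1.41 with the muscle score (edgeR adjusted p = 0.0101). Of its exon bases, 12.2% lie opposite A430027H14Rik. Even in knockout Kcnk2 was far below Kcnk3, at a mean of 8.72 CPM against 336 CPM for Kcnk3. The other 5 tested 2-pore genes, Kcnk1, Kcnk4, Kcnk5, Kcnk6 and Kcnk13, had log2 fold changes of -0.12 to 0.42, and none was called.

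Of the 21 tested voltage-gated potassium alpha subunits, 4 were higher and 1 was lower, against 15.2% and 18.9% of all tested genes. None of the tested silent subunits was called lower without the muscle score. Kcns3 (Kv9.3) had 27.6, 28.3, 27.0 and 28.1 CPM in the knockout libraries, against 20.7, 29.9, 21.3 and 17.5 CPM in the control libraries, at a log2 difference of 0.31 (SE 0.146, edgeR adjusted p = 0.124). It was called higher without control 514 (0.48, edgeR adjusted p = 0.00629) and with the muscle score (0.69, edgeR adjusted p = 0.00487). Kcng2 (Kv6.2) was called higher at a low level, with 1.0, 0.865, 0.473 and 0.747 CPM in the knockout libraries, against 0.312, 0.399, 0.0880 and 0.0754 CPM in the control libraries (log2 fold change 1.79, SE 0.48, edgeR adjusted p = 0.019). That call ended without knockout 513 (edgeR adjusted p = 0.0512), and 2 control libraries were below the level of 3 counts, 0.112 to 0.132 CPM. Of its exon bases, 9.1% lie opposite D330025C20Rik. Kcng4 (Kv6.4) had 3.93, 3.08, 4.89 and 4.19 CPM in the knockout libraries, against 7.01, 2.59, 6.95 and 13.8 CPM in the control libraries, and was not called (-0.92, edgeR adjusted p = 0.121), but was lower with the muscle score (-1.72, edgeR adjusted p = 0.00615).

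The higher Kv subunits included 2 of the Kv3 family, which gives fast-spiking neurons their brief spikes. Kcnc2 (Kv3.2; chromosome 10, 112271123 to 112466304, plus strand) had 2.65, 3.38, 3.90 and 4.30 CPM in the knockout libraries, against 1.01, 1.83, 1.41 and 2.19 CPM in the control libraries. Its groups did not overlap (log2 fold change 1.14, SE 0.258, edgeR adjusted p = 0.00913). Kcnc1 (Kv3.1; chromosome 7, 46396468 to 46433353, plus strand) had 5.77, 5.23, 5.52 and 2.35 CPM in the knockout libraries, against 1.40, 0.120, 1.67 and 2.19 CPM in the control libraries (log2 fold change 1.80, SE 0.579, edgeR adjusted p = 0.0406). Its lowest knockout library was just above the highest control library. Leaving out knockout 512, 513 or 515 ended the Kcnc1 call (edgeR adjusted p = 0.0851, 0.0893 and 0.093), as did leaving out control 511 or 517 (0.0801 and 0.0697) or using no filter on low counts (0.0564), and the muscle score brought it to 0.31 (edgeR adjusted p = 0.633). Kcna5 (Kv1.5) had 25.3, 22.3, 25.7 and 34.4 CPM in the knockout libraries, against 22.2, 29.0, 20.3 and 13.9 CPM in the control libraries. It was not called without the muscle score (0.33, edgeR adjusted p = 0.256) and was higher with it (0.80, edgeR adjusted p = 0.0253).

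**Figure D1:**
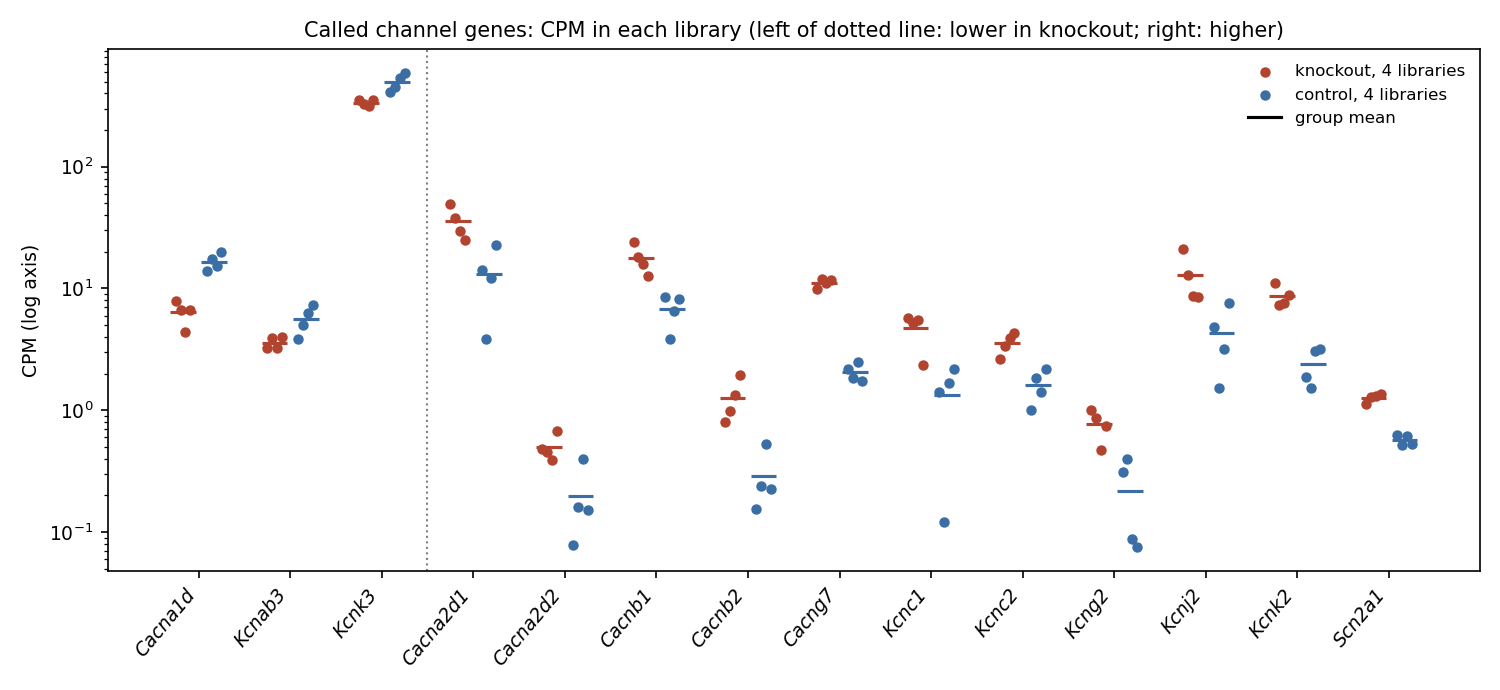
CPM of 14 called channel genes in each of the 4 knockout (red, left) and 4 control (blue, right) libraries on a log axis, with short lines for group means and genes lower in knockout left of the dotted line. The groups overlap for Kcnab3 and Cacna2d2 and for none of the others drawn.

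Of the 8 tested potassium channel auxiliary genes, 1 was called, against 34.1% of all tested genes. Kcnab3 (chromosome 11, 69326258 to 69333041, plus strand), a Kv beta subunit, had 3.25, 3.91, 3.23 and 3.96 CPM in the knockout libraries, against 3.82, 4.99, 6.25 and 7.35 CPM in the control libraries. The groups overlapped (log2 fold change -0.64, SE 0.208, edgeR adjusted p = 0.0392). This call ended without any one knockout library (edgeR adjusted p = 0.0874, 0.0691, 0.0978 and 0.0649), without control 517 or 518 (0.0848 and 0.105), with upper quartile factors (0.0756), library sizes alone (0.14) or a minimum count of 30 (0.0513), and with the muscle score (0.0835), where the log2 fold change was -0.75. Of its exon bases, 5.1% lie opposite Kcnab3os. None of the 4 tested calcium- or sodium-activated potassium channel genes was called. Kcnn1 (SK1) differed by -0.00 on the log2 scale (SE 0.108, edgeR adjusted p = 0.978), and Kcnma1, the pore of the BK channel, had 1.46 (edgeR adjusted p = 0.053), and 0.12 with the muscle score.

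The ATP-sensitive potassium channel, which ties membrane potential to the energy state of a cell, is built from an inward rectifier (Kcnj8 or Kcnj11) and a sulfonylurea receptor (Abcc9 or Abcc8). Of its 4 genes, 1 was called, against 34.1% of all tested genes. Kcnj8 (Kir6.1) averaged 35.7 ± 5.48 CPM in knockout and 36.1 ± 8.32 CPM in control (SD, n = 4 each; log2 fold change -0.01, SE 0.178, edgeR adjusted p = 0.961), and its sign changed with the scaling used. Kcnj11 (Kir6.2; chromosome 7, 46097123 to 46100237, minus strand) had 37.0, 35.0, 35.1 and 25.7 CPM in the knockout libraries, against 12.2, 13.5, 23.2 and 36.3 CPM in the control libraries. Control 518 lay within the knockout range, and Kcnj11 was not called (0.64, SE 0.331, edgeR adjusted p = 0.167). It was higher without that library, the only control library in the knockout range (1.05, edgeR adjusted p = 0.0151). With the muscle score Kcnj11 had 0.14 and was not called (edgeR adjusted p = 0.818). Abcc8 (SUR1; chromosome 7, 46104523 to 46180033), which lies beside Kcnj11, had 8.58, 11.8, 13.1 and 11.5 CPM in the knockout libraries, against 1.09, 2.07, 2.20 and 2.64 CPM in the control libraries. Every knockout library was above every control library, 5.61-fold on average (log2 fold change 2.49, SE 0.249, edgeR adjusted p = 0.000262), and the muscle score left it at 2.57 (edgeR adjusted p = 0.00258). Abcc9 (SUR2), at a mean of 75.3 CPM in knockout and 68.2 CPM in control, differed by 0.14 on the log2 scale (SE 0.126, edgeR adjusted p = 0.404).

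Of the 6 tested inward rectifiers, Kcnj2 alone was called, against 34.1% of all tested genes. Kcnj2 (Kir2.1; chromosome 11, 111066164 to 111076825, plus strand), a strong rectifier of muscle and other cells, had 21.2, 12.9, 8.60 and 8.48 CPM in the knockout libraries, against 4.83, 1.52, 3.17 and 7.57 CPM in the control libraries (log2 fold change 1.58, SE 0.481, edgeR adjusted p = 0.0352). Within each group its libraries ran in the order of the muscle marker sum. The call ended without knockout 512 or 513 (edgeR adjusted p = 0.0802 and 0.0738), without control 511 or 517 (0.0691 and 0.0903), with no filter on low counts (0.0561), and with the muscle score, where its log2 fold change was 0.46 (edgeR adjusted p = 0.302).

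Of 6 tested calcium channel pore genes 1 was lower, against 18.9% of all tested genes. Calcium channel auxiliary genes held 5 higher ones of 9 tested, against 15.2% of all tested genes. Cacna1d (Cav1.3; chromosome 14, 30039939 to 30353486, minus strand), an L-type pore that opens at fairly negative potentials, had 7.86, 6.62, 4.38 and 6.65 CPM in the knockout libraries, against 13.9, 17.6, 15.2 and 19.8 CPM in the control libraries. No library of one group reached the range of the other, and the mean was 2.61-fold lower (log2 fold change -1.38, SE 0.184, edgeR adjusted p = 0.000767). With the muscle score it was -1.42 (edgeR adjusted p = 0.00583). The gene Chdh lies opposite 4.7% of the exon bases of Cacna1d. The cardiac and smooth muscle pore Cacna1c was not called (0.43, edgeR adjusted p = 0.0698), nor were Cacna1a (-0.16), Cacna1g (0.47) and Cacna1h (0.03).

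Cacng7 (chromosome 7, 3336585 to 3366948, plus strand), a gamma subunit best known as a partner of AMPA-type glutamate receptors in the brain, had the smallest p of all channel genes. It had 9.90, 12, 11.1 and 11.8 CPM in the knockout libraries, against 2.18, 1.83, 2.47 and 1.73 CPM in the control libraries. The mean was 11.2 ± 0.929 CPM in knockout and 2.05 ± 0.335 CPM in control (SD, n = 4 each), 5.45-fold higher (log2 fold change 2.45, SE 0.147, edgeR adjusted p = 2.54e-05), and 2.43 with the muscle score (edgeR adjusted p = 0.000719). Its neighbours on the chromosome differed from it. Cacng8 (3394117 to 3415605) had at most 1 count in any library, and Cacng6 (3424662 to 3434940), the gamma subunit of skeletal muscle type, had 6.98, 4.44, 3.47 and 3.14 CPM in the knockout libraries, against 2.07, 0.120, 1.14 and 2.71 CPM in the control libraries. Cacng6 was not called (1.56, edgeR adjusted p = 0.0803) and had -0.16 with the muscle score. It was called higher without control 514 (1.18, edgeR adjusted p = 0.0383). Cacng4, a further gamma subunit of the AMPA receptor type, was below the filter, with 15, 11.5, 23.5 and 7.5 counts in the knockout libraries and 1, 0, 1.5 and 0 counts in the control libraries.

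The other 4 higher auxiliary genes were the beta subunits Cacnb1 and Cacnb2 and the alpha2delta subunits Cacna2d1 and Cacna2d2, which carry pore subunits to the membrane. Cacnb2 (chromosome 2, 14604306 to 14987908, plus strand), the main beta subunit of heart, was scarce, with 0.802, 0.977, 1.34 and 1.94 CPM in the knockout libraries, against 0.156, 0.239, 0.528 and 0.226 CPM in the control libraries. The groups did not overlap (log2 fold change 2.15, SE 0.422, edgeR adjusted p = 0.00474), and the value was 2.46 with the muscle score (edgeR adjusted p = 0.0225). Of its exon bases, 7.3% lie opposite another gene. Cacnb1 (chromosome 11, 98004925 to 98022627, minus strand), the beta subunit of skeletal muscle, had 24.3, 18.2, 16 and 12.7 CPM in the knockout libraries, against 8.49, 3.83, 6.51 and 8.21 CPM in the control libraries. It differed by 1.39 on the log2 scale (SE 0.271, edgeR adjusted p = 0.00498), and 0.74 with the muscle score (edgeR adjusted p = 0.0273).

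Cacna2d1 (chromosome 5, 15934691 to 16374511, plus strand) had 49.3, 38.1, 29.7 and 24.9 CPM in the knockout libraries, against 14.2, 3.83, 12.1 and 22.7 CPM in the control libraries (log2 fold change 1.42, SE 0.469, edgeR adjusted p = 0.0489). Both groups ran in the order of the muscle marker sum. The Cacna2d1 call ended without any one knockout library (edgeR adjusted p = 0.109, 0.101, 0.0807 and 0.0647), without control 511 or 517 (0.0999 and 0.111), with relative log expression factors (0.0507) or no filter on low counts (0.0819), and with the muscle score (0.32, edgeR adjusted p = 0.17). Cacna2d2 (chromosome 9, 107399880 to 107529343, plus strand) had 0.481, 0.451, 0.394 and 0.673 CPM in the knockout libraries, against 0.0779, 0.160, 0.396 and 0.151 CPM in the control libraries, and its groups overlapped (log2 fold change 1.36, SE 0.44, edgeR adjusted p = 0.039). That call ended without any one knockout library (edgeR adjusted p = 0.0675, 0.073, 0.0585 and 0.107), without control 511, 514 or 518 (0.0818, 0.0817 and 0.081), under DESeq2 (DESeq2 adjusted p = 0.0579), and with the muscle score (edgeR adjusted p = 0.138), where the log2 fold change was 1.48.

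Sodium channel genes, with 4 alpha and 4 beta genes tested, held 2 higher genes and no lower one, against 15.2% and 18.9% of all tested genes. Scn2a1 (chromosome 2, 65670445 to 65767447, plus strand), the pore subunit of central neurons also written Scn2a, had 1.12, 1.28, 1.30 and 1.35 CPM in the knockout libraries, against 0.623, 0.519, 0.616 and 0.527 CPM in the control libraries (log2 fold change 1.14, SE 0.198, edgeR adjusted p = 0.00268). With the muscle score Scn2a1 had 1.11 (edgeR adjusted p = 0.0287). Scn7a, the atypical pore subunit known for sensing sodium, was not called (-0.04, SE 0.12, edgeR adjusted p = 0.835), at a mean of 35.8 CPM in knockout and 36.7 CPM in control.

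Kcnc1, Kcnc2, Scn2a1 and Cacng7 are known from neurons, though not proven to come from them here. Of these, Kcnc1 was lowest in control 514 and had 0.31 with the muscle score (edgeR adjusted p = 0.633). The neuron markers are given beside all of them. Of 14 entries 3 were tested, and Map2 (2.18) and Uchl1 (1.11) were called higher while Stmn2 was not (-0.10). Their summed level was 22.6 to 27.1 CPM in knockout and 7.21 to 9.99 CPM in control, but Map2 carried it, with 21.8, 22.6, 19.0 and 18.1 CPM in the knockout libraries, against 2.38, 4.95, 5.55 and 5.16 CPM in the control libraries. Without Map2 the sums overlapped, at 4.52 to 5.01 CPM in knockout and 2.99 to 4.83 CPM in control, and Snap25, Syt1 and Dbh were at 0 CPM in every library after rounding. Schwann cell markers summed to 425 to 489 CPM in knockout and 295 to 391 CPM in control. Among them 2 of 11 tested were called higher, against 15.2% of all tested genes, and 1 with the muscle score. Of the vascular and immune markers, 3 of 12 for smooth muscle and pericytes, 2 of 10 for endothelium and 4 of 9 for macrophages were called higher, where 15.2% of all tested genes were, and 1 of the 12 smooth muscle and pericyte markers, Cspg4, was lower. With the muscle score the higher counts were 2, 1 and 1. No tested marker of lymphocytes, fibroblasts and preadipocytes or erythroid cells was called. Their median log2 fold changes were -0.37, 0.41 and 0.5, with 0 of 9, 10 of 10 and 5 of 5 tested markers above 0. The part of these cell types in the channel differences was not tested.

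Several channels known from skeletal muscle were lowest in control 514 and highest in knockout 512, the libraries with the lowest and the highest muscle marker sum. Cacna1s (Cav1.1; chromosome 1, 136052901 to 136119822, plus strand), the voltage sensor of muscle contraction, had 176, 108, 90.2 and 70.7 CPM in the knockout libraries, against 37.9, 2.63, 25.3 and 60.7 CPM in the control libraries. The groups did not overlap, but the control libraries spanned 23.1-fold, and the gene was not called (log2 fold change 1.81, SE 0.754, edgeR adjusted p = 0.102). Scn4a (Nav1.4; chromosome 11, 106318593 to 106349390, minus strand), the sodium channel of the muscle action potential, had 82.6, 49.3, 43.1 and 33.3 CPM in the knockout libraries, against 18.3, 1.83, 14.2 and 31.6 CPM in the control libraries (1.66, edgeR adjusted p = 0.101). Knockout 516 and control 518, with muscle sums of 9680 and 8583 CPM, stood close for both genes, at 70.7 and 60.7 CPM for Cacna1s and at 33.3 and 31.6 CPM for Scn4a. Without control 514, both were called higher, at 1.42 for Cacna1s (edgeR adjusted p = 0.0238) and 1.28 for Scn4a (edgeR adjusted p = 0.0315). Of the exon bases of Cacna1s, 20% lie opposite Gm37759.

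The beta subunit Scn4b had 91.3, 53.2, 39.8 and 41.9 CPM in the knockout libraries, against 22.2, 1.95, 10.9 and 27.6 CPM in the control libraries (1.85, edgeR adjusted p = 0.0718; without control 514 1.48, edgeR adjusted p = 0.023). The Cav1.1 gamma subunit Cacng1 had 11.1, 8.57, 7.41 and 5.79 CPM in the knockout libraries, against 2.88, 0.239, 3.74 and 5.20 CPM in the control libraries (1.44, edgeR adjusted p = 0.102; without control 514 1.05, edgeR adjusted p = 0.019). Kcna7 (Kv1.7) had 33.6, 23.3, 22.3 and 14.8 CPM in the knockout libraries, against 9.35, 1.24, 5.77 and 15.4 CPM in the control libraries, where control 518 passed knockout 516.

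As a set of 11 put together after their values were seen (Cacna1s, Cacna2d1, Cacnb1, Cacng1, Cacng6, Scn4a, Scn4b, Kcna7, Kcnc4, Kcnj2 and Kcnj12), the muscle channels summed to 520, 334, 273 and 228 CPM in the knockout libraries, against 128, 18.5, 87.6 and 195 CPM in the control libraries. The order of the muscle sum within control (514, 517, 511, 518) was that of 13 of the 70 tested channel genes (18.6%) and of 5.42% of all tested genes. Of these 13, 9 belong to the set, and Kcnma1 and Kcng4 are among those that do not. Since the set was chosen from such values, its count is a description only. The median log2 fold change of the 11 was 1.56, and 3 of them were called. Among the 59 other tested channel genes 10 were higher and 4 lower, with a median of 0.30. The plot against the muscle sum sets 4 of these genes above 4 other channel genes.

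**Figure D2:**
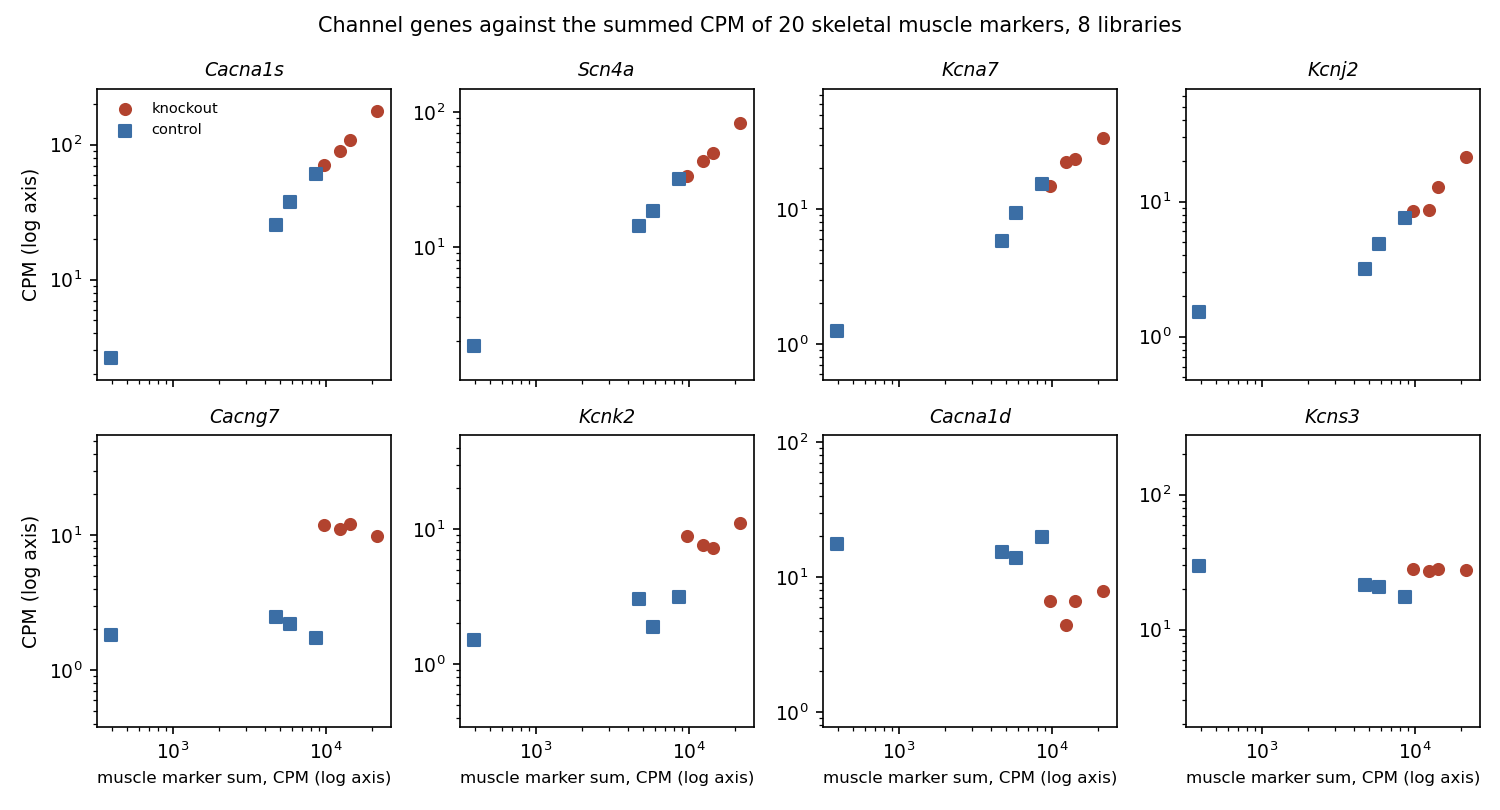
CPM of 8 channel genes (vertical) against the summed CPM of 20 skeletal muscle markers (horizontal), both on log axes, in 4 knockout (red circles) and 4 control (blue squares) libraries. Cacna1s, Scn4a and Kcnj2 climb with the sum through both groups, Kcna7 does so except between control 518 and knockout 516, while Cacng7, Kcnk2 and Cacna1d separate the groups and Kcns3 lies between 17.5 and 29.9 CPM throughout.

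When the muscle score was added to the fit, 10 channel genes were higher and 4 lower, against 9.58% and 12.2% of all tested genes. The calls shared by both fits were 8 higher, among them Cacng7, Kcnk2, Scn2a1, Cacnb2, Cacnb1, Kcnc2 and Kcng2, and 3 lower, among them Cacna1d and Kcnk3. The 6 genes called only without the score included Kcnj2, Cacna2d2, Kcnab3, Kcnc1 and Cacna2d1. The 3 called only with it were Kcns3, Kcna5 and Kcng4. The median of the 11 muscle channels was 0.06 in that fit, with Cacnb1 alone called, and Cacna1s and Scn4a had 0.06 and 0.03. The score itself differs between the groups, so the group difference and the muscle score share part of their variation. Which share of a change belongs to either was not tested. Control 514 had a score of -4.023, while the other libraries lay between -0.808 and 1.836, so that library weighs heavily in the adjusted values. Among the control libraries, 514 was the highest for Kcns3 and Kcna5 and the lowest for Kcng4.

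**Figure D3:**
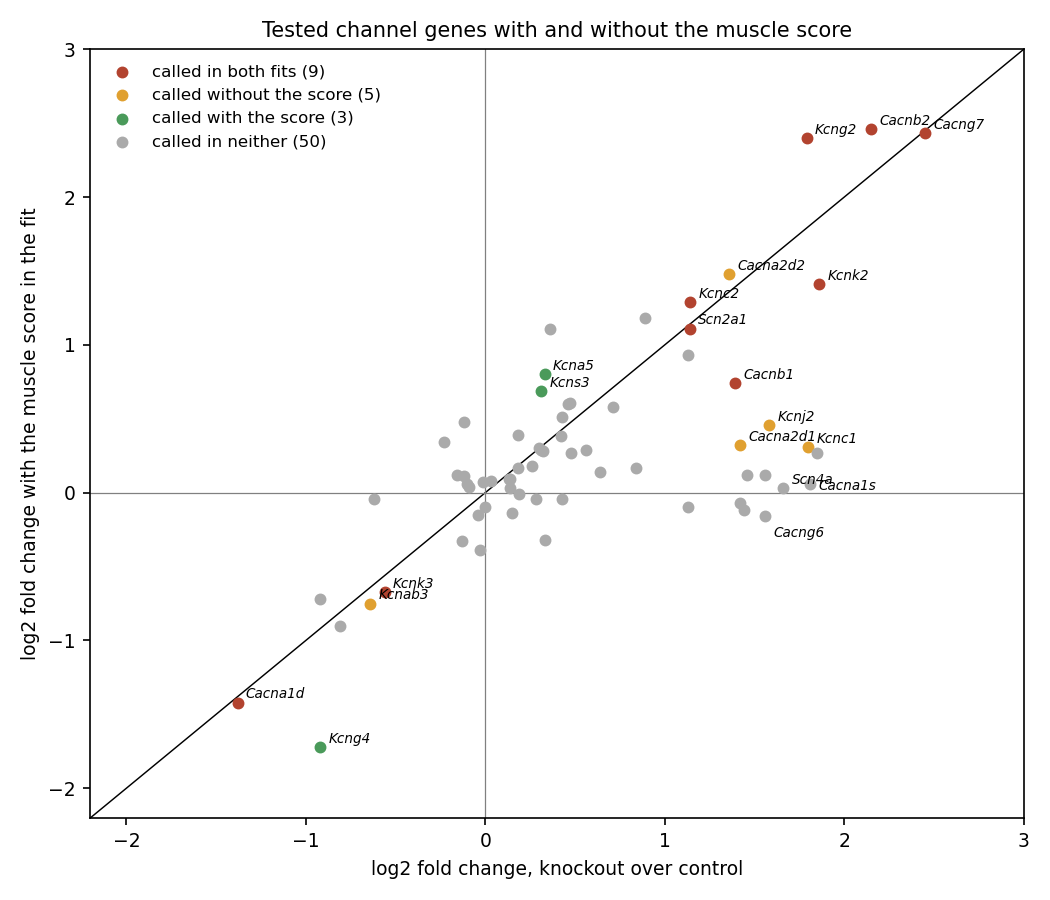
Log2 fold change, knockout over control, of 67 tested channel genes without (horizontal) and with (vertical) the muscle score in the fit, coloured by whether a gene was called in both fits, in one or in neither. Cacng7 and Cacna1d lie near the diagonal, while Cacna1s and Scn4a move to 0.06 and 0.03.

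Genes that work with these channels were read from a list of 85 pump, exchanger, chloride and other channel genes outside the symbol rule, of which 66 were tested. Of these 19 were higher and 3 lower, where 15.2% and 18.9% of all tested genes were, with a median log2 fold change of 0.23. With the muscle score 15 were higher and 3 lower. The sodium pump, which maintains the gradients that the channels use, had 3 higher and 1 lower of 9 tested genes. Its beta subunits Atp1b1 (99.9 CPM in knockout, 32.9 CPM in control; 1.60, edgeR adjusted p = 0.000398) and Atp1b2 (58.6 CPM in knockout, 32.9 CPM in control; 0.83, edgeR adjusted p = 0.000505) were higher. The sodium-calcium exchangers Slc8a1 of the plasma membrane (1.51, edgeR adjusted p = 0.00198) and Slc8b1 of mitochondria (0.74, edgeR adjusted p = 0.00789) made up the 2 higher of 3 tested exchangers.

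Of 26 tested other cation channels, 5 were higher and 1 lower, against 15.2% and 18.9% of all tested genes. Trpm4, a sodium-permeable channel opened by calcium, averaged 37.3 CPM in knockout and 18.3 CPM in control (1.03, edgeR adjusted p = 0.00015) and Trpc1 had 1.26 (edgeR adjusted p = 0.000623). Orai3, a pore of store-operated calcium entry, was lower, at 38.2 CPM in knockout and 51.0 CPM in control (-0.41, edgeR adjusted p = 0.00353). Among 17 chloride transport genes 6 were higher and 1 lower, against the same shares of all tested genes. With the muscle score these counts were 4 and 0, against 9.58% and 12.2% of all tested genes. The potassium-chloride cotransporter Slc12a4 (KCC1) averaged 69.2 CPM in knockout and 23.7 CPM in control (1.55, SE 0.116, edgeR adjusted p = 7.47e-05), and the sodium-potassium-chloride cotransporter Slc12a2 (NKCC1) averaged 57.8 CPM in knockout and 41.8 CPM in control (0.47, edgeR adjusted p = 0.00354). None of the 3 tested Kv auxiliary proteins outside the symbol rule was called. Sodium channel modulators had 2 of 6 tested genes higher, where 15.2% of all tested genes were, and 0 with the muscle score.

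Channel genes that were not tested are described by their counts. The 56 with counts below the filter had totals of 0.5 to 74 counts over the 8 libraries, among them Kcnn2 with the highest total, and Cacna2d3 with 35.5, 14.5, 4.5 and 5 counts in the knockout libraries against 2, 2, 1.5 and 0 counts in the control libraries. The 11 listed at 0 throughout belong to the Kcna, Kcnh, Kcns, Kcnv, Kcnk and Cacng groups, and a count of 0 allows up to 3 counts, or 0.112 to 0.132 CPM, per library.

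In the authors' deposited table all 137 channel genes are present, with 25 higher and 4 lower at an FDR under 0.05. All 17 genes called here were called in the same direction in the authors' deposited table. For Cacng7 the authors' deposited table gives a log2 fold change of 2.42 (FDR 4.61e-28) and for Kcnk3 -0.57 (FDR 0.0018). Cacna1s (1.80, FDR 0.00832), Scn4a (1.64, FDR 0.00967) and Kcnq1 (0.87, FDR 0.0339) were among those called in the authors' deposited table and not here. Cacng4 (4.03, FDR 2.02e-07) and Cacna2d3 (3.19, FDR 0.000812) were called higher in the authors' deposited table too. Both were below the filter here and were not tested.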

How the data were processed

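RNA of brown adipose tissue from 4 knockout and 4 control libraries had been extracted with Trizol, per the labels' protocols. The submitters' processing notes name TopHat version 2, the mm10 build, HOMER and edgeR. The deposited estimated counts are per RefSeq transcript, over exons and both strands, per the file headers, so overlapping genes on opposite strands share reads. Of the deposited count values 36.892% are not whole, and they were rounded. Transcript length comes from the deposited count table. The authors' deposited comparison table holds a normalised signal per library, a fold (ratio), p-values with FDR, and log2 values, per the file headers. Library numbers in the titles identified every column of values, and numbers do not repeat between the groups.

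Of 30521 rows, 829 without a symbol (0.0608% to 0.0824% of counts) were left out, and 1 row per symbol was kept, the one with the highest total (3969 symbols had several rows). The 137 channel genes had 248 rows. Genes passing filterByExpr with a minimum count of 10 (14178) went into edgeR 4.0.16 (R 4.3.3) and its two-sided quasi-likelihood test with TMM factors (1.053 to 1.101 in knockout, 0.8983 to 0.9607 in control), no covariate, and Benjamini-Hochberg adjustment (threshold 0.05), at a common biological coefficient of variation of 0.181. The SE is the log2 fold change divided by the square root of F, an approximation. Correlations of log2 CPM were 0.985 to 0.991 within knockout, 0.963 to 0.981 within control and 0.942 to 0.972 between them, and no pair agreed within sampling noise (lowest chi-square per degree of freedom 12.4 in knockout and 50.2 in control). Floors of 3 counts cover counting error only. Scripts were tested on simulated data. Alternatives used other scaling factors and filters, DESeq2 1.42.0, limma 3.58.1 with voom, the longest transcript per symbol, the muscle score, and leaving out libraries.

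The channel genes, marker lists and partner lists were chosen with earlier results of these data known. The genes named are Kdm1a, all called channel genes, the 12 with the highest level per length, those past 2-fold without overlap, the ATP-sensitive channel subunits and up to 12 called partner genes. Others named as uncalled or untested, or as called only with the muscle score, were picked after their values were seen. Promoter letters come from RefSeq's table. Some genes that this rule names are not reported here and not drawn.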

Additional observations from a re-analysis of the deposited data

Results flagged for a closer look

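A single library was far from the other 3 of its group in 4 of 80 groups checked over the named genes (Dixon's ratio above its 95% critical value), and chance flags about 1 in 20 groups. Kcnc1 was 2.35 CPM in knockout 516, the lowest of the knockout libraries. Kcnj8 was 43.9 CPM in knockout 512, the highest of the knockout libraries. Trpc1 was 5.46 CPM in knockout 516, the lowest of the knockout libraries, and Atp1b1 was 46.9 CPM in control 518, the highest of the control libraries.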

How the results depend on the processing

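No paired analysis was possible because the library numbers differ between the groups. Of the 17 called channel genes, 10 kept their call under every alternative that tested them, 18 in all, among them Cacng7, Cacna1d, Kcnk2, Scn2a1, Cacnb2, Cacnb1, Kcnk3 and Kcnc2. Of these, Scn2a1 and Cacnb2 were not tested at a minimum count of 30. The other 7 lost it under at least 1, and none changed sign. Median log2 fold change of all genes moved by 0.013 with relative log expression factors, 0.103 with upper quartile factors and 0.198 with library sizes alone. Higher channel genes numbered 13, but 21 with library sizes alone, 24 with limma-voom, and 8 to 21 without 1 library. Lower ones numbered 4, and 3 to 5 without 1 library. Over all genes 2154 were higher, but 3993 with library sizes alone, 1358 with the muscle score and 1527 to 2178 without 1 library, and 2683 were lower, but 1624 with upper quartile factors, 931 with library sizes alone, 1725 with the muscle score and 1916 to 2662 without 1 library. Partner genes were 19 higher (13 to 18 without 1 library) and 3 lower (0 with library sizes alone, 3 to 4 without 1 library). Without both knockout 512 and control 514, chosen after seeing the data, 15 channel genes were higher and 5 lower. No counts over all genes are given here for that fit or for limma-voom. Kdm1a ranged from -1.47 to -1.39 without 1 library. Kcnj8, -0.01, was 0.0025 with relative log expression factors, 0.09 with upper quartile factors, 0.19 with library sizes alone, 0.02 at a minimum count of 30, 0.07 with the muscle score, and -0.14 to 0.08 without 1 library. With the muscle score Cacng1 was -0.12 and Cacng6 -0.16. The causes were not tested.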
